A study of Mus musculus with 28 samples.

Results

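The forkhead genes are a family of transcription factors, and their messenger RNA was followed here through the first molar of the mouse embryo from the bud to the bell stage. The members were taken by symbol from the table of counts per gene, as the protein-coding genes named Fox followed by a subfamily letter from a to s and a number. Of 44 such symbols, Foxi3, Foxd3, and Foxm1 were left out, and the 41 remaining genes are the members, of 21896 protein-coding genes and 52636 genes in all. The study asked how the expression of genes known to be needed for tooth development is organized in the developing organ, and each RNAseq library was made from a single first molar tooth germ of a C57BL/6JOlaHsd mouse embryo with no allele or treatment named. The groups are 7 teeth of the bud stage (E13, called E13.5 in the sample labels), 7 teeth of the cap stage (E14, labelled E14.5), and 7 teeth of the bell stage (E16, labelled E16.5), from 7, 6, and 5 embryos. A second table holds the same E13 and E16 teeth and 6 teeth of wild type E15 embryos. A tooth germ holds epithelium, mesenchyme, vessels, and what was left of the surrounding jaw, so a level is a mean over all these cells, and fewer cells of a type and less RNA per cell cannot be told apart. For 1 embryo at E14 and 2 at E16 both teeth were sequenced, and each tooth entered the tests on its own, so that part of the spread behind the p values is a spread within an embryo.

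Forkhead proteins bind DNA through a domain of about the same fold in all members, the winged helix, and the rest of the protein sets whether a member opens chromatin, activates, or represses. In the jaw, Foxf1 and Foxf2 are Hedgehog-dependent genes of the mesenchyme, Foxc1, Foxd1, and Foxd2 are regional genes of neural crest derived mesenchyme, and Foxn1, Foxq1, and Foxe1 are best known from epithelia. The FoxO proteins are held in the cytoplasm by insulin and growth factor signaling through Akt, and the FoxP and FoxK proteins are mostly repressors that are widely expressed.

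Of the 41 genes, 25 had enough reads for a test and 16 did not. Between the bud and the bell stage, 9 of the 25 tested genes rose and 7 fell. Foxn1 rose 18.6-fold and Foxd2 8.85-fold, while Foxp2 fell by 2.91, Foxc1 fell by 2.14, and Foxd1 fell by 1.94 on the log2 scale (edgeR quasi-likelihood test, Benjamini-Hochberg adjusted p = 7.66e-10, 2.39e-08, 4.70e-11, 4.76e-09, and 4.93e-08). For Foxp2 a second table of estimated counts gave a smaller change, -1.06. The other genes that rose were Foxf2, Foxj1, Foxo1, Foxo6, Foxp1, Foxq1, and Foxs1, and the other genes that fell were Foxf1, Foxk2, Foxn3, and Foxo4. Of all 19101 genes tested, 41.3% passed the same threshold between these stages, 21.6% upward and 19.6% downward, beside 64% of the tested forkhead genes. The 7 teeth of E13 and of E16 did not overlap in 8 of the 25 genes, where the share over all genes tested was 18.7%.

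The change was divided unevenly over the steps. From E13 to E14, 4 forkhead genes rose and 5 fell, 36% of those tested, beside 19.7% of all genes (11.3% upward and 8.47% downward). From E14 to E16, 8 rose and 6 fell, 56%, beside 28.1% of all genes (13.1% downward and the rest upward). Groups without overlap were found for 2 genes at the first step and 4 at the second, beside 9.92% and 10.8% of all genes. Foxn1 and Foxp1 rose at both steps, and Foxc1, Foxd1, and Foxp2 fell at both. Foxd2 fell at the first step and rose at the second, and Foxn2 rose and then fell. Foxf2, Foxj1, Foxo1, and Foxq1 rose at the second step and passed no test at the first. The 7 genes Foxc2, Foxe1, Foxj2, Foxj3, Foxk1, Foxl1, and Foxp4 passed the threshold in none of the 3 comparisons.

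The depth of the libraries was between 17814073 and 27115729 counts, and levels are given as normalized counts, the counts of a gene divided by a size factor that ranged from 0.805 to 1.18. One library stood apart, the left tooth of embryo 3 at E16, which also had the fewest counts. It was the lowest tooth of its stage in 22 of the 25 tested forkhead genes (88%), and in 37.3% of all genes tested. The same tooth was the highest of its stage in 1 forkhead gene and in 32.8% of all genes tested, so over all genes it stood out in both directions. It was also the lowest in 8 of 11 lists of cell type markers, among them the mesenchyme list, which summed to 25477 normalized counts there beside a median of 44973 over the E16 teeth. Without this tooth, 8 forkhead genes rose and 7 fell from E13 to E14, where 30.4% of all genes passed (16.7% upward, 13.8% downward). Then 10 rose and 6 fell from E14 to E16 (34.3%, of which 18.5% upward and 15.8% downward), and 12 rose and 8 fell over the whole time (48.7%, of which 25.5% upward and 23.1% downward). The falls from E13 to E14 and over the whole time include a forkhead gene outside the 25, which had too few reads for a test with all teeth. At E13, the left tooth of embryo 7 held 27143 normalized counts of 7 skeletal muscle genes, beside a median of 918. From E13 to E16, the markers that rose and fell were 7 and 0 of 7 for macrophages, 2 and 0 of 7 for endothelium, 2 and 1 of 6 for red cells, 0 and 4 of 7 for skeletal muscle, 3 and 2 of 5 for cartilage, 3 and 1 of 6 for osteoblasts, and 3 and 3 of 7 for Schwann cells and neurons (edgeR). Without both of these teeth, 8 rose and 5 fell from E13 to E14 (28.8% of all genes passed), 10 rose and 6 fell from E14 to E16 (33.9%), and 11 rose and 7 fell from E13 to E16 (47.2%).

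**Figure D1:**
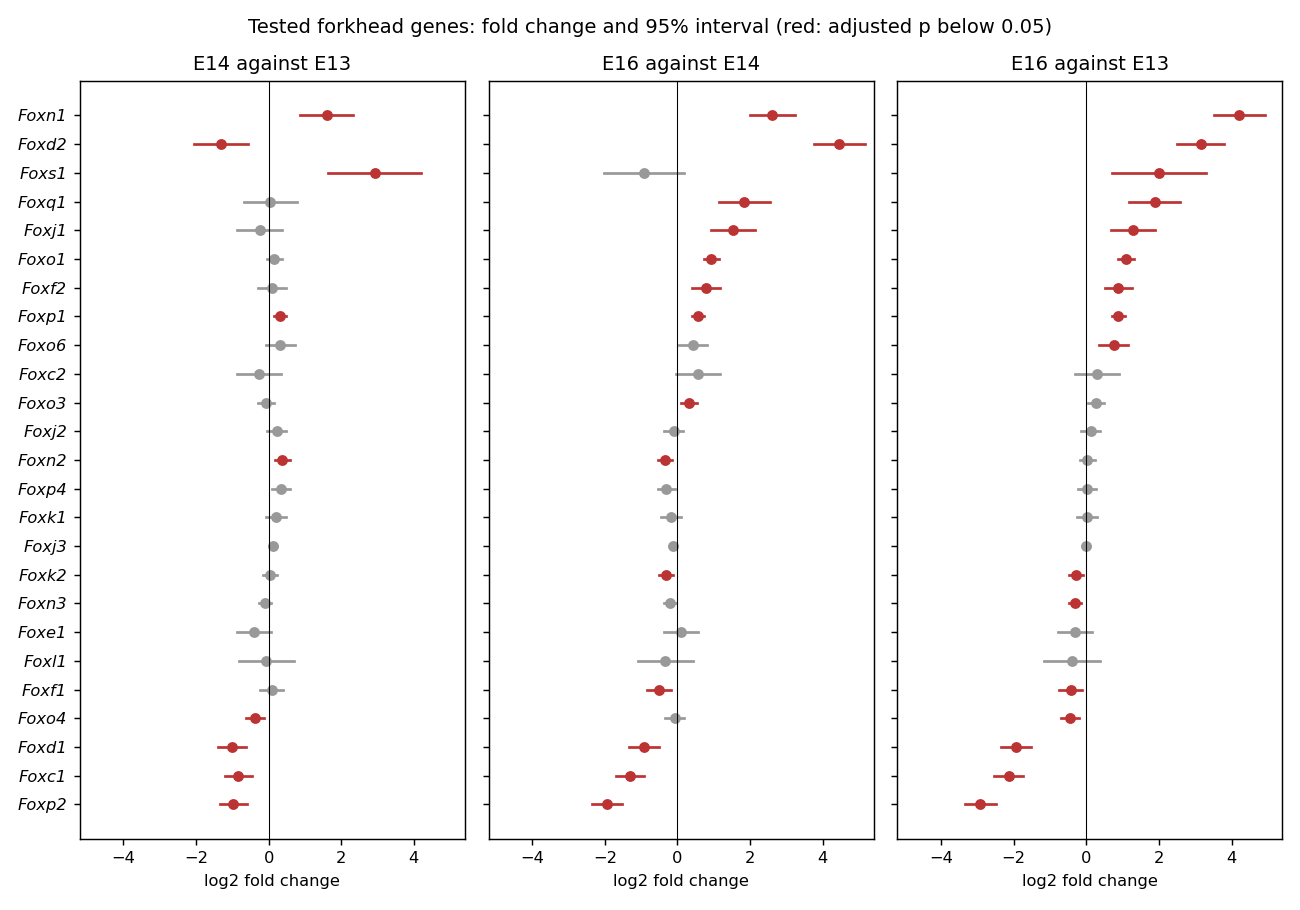
Log2 fold changes of the 25 tested forkhead genes in the 3 comparisons of stages, with 95% intervals from the edgeR fit on the horizontal axis and genes ordered by the change from E13 to E16. Red marks an adjusted p below 0.05, and the largest changes are those of Foxd2 from E14 to E16 (4.46) and of Foxn1 from E13 to E16 (4.21).

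Levels of different genes were compared per kb of exon, because long genes collect more reads. Foxf1, a mesenchymal factor of the lung, gut, and jaw, had the highest level per kb of the family at each stage, with medians of 997 (E13), 1065 (E14), and 816 (E16) normalized counts per kb. It made up 18.8%, 18.9%, and 13.4% of the summed level of the family. Foxp4, a widely expressed repressor, came next at each stage with 652, 860, and 727 normalized counts per kb. The sum of the medians over the 41 genes was 5296 normalized counts per kb at E13 and went to 5638 and 6075 at the later stages. The 9 jaw mesenchyme and vessel wall factors held 28.6%, 27.7%, and 27.5% of it, so their summed share moved little between stages. The 4 FoxO genes held 15.6%, 14.6%, and 18.9%, the 4 FoxP genes 18.3%, 21.5%, and 20.7%, and the 7 genes Foxk1, Foxk2, Foxj2, Foxj3, Foxn2, Foxn3, and Foxn4 held 34.1%, 33.9%, and 29.0%. The 10 epithelial and endodermal factors held only 3.41%, 2.34%, and 3.84%.

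**Figure D2:**
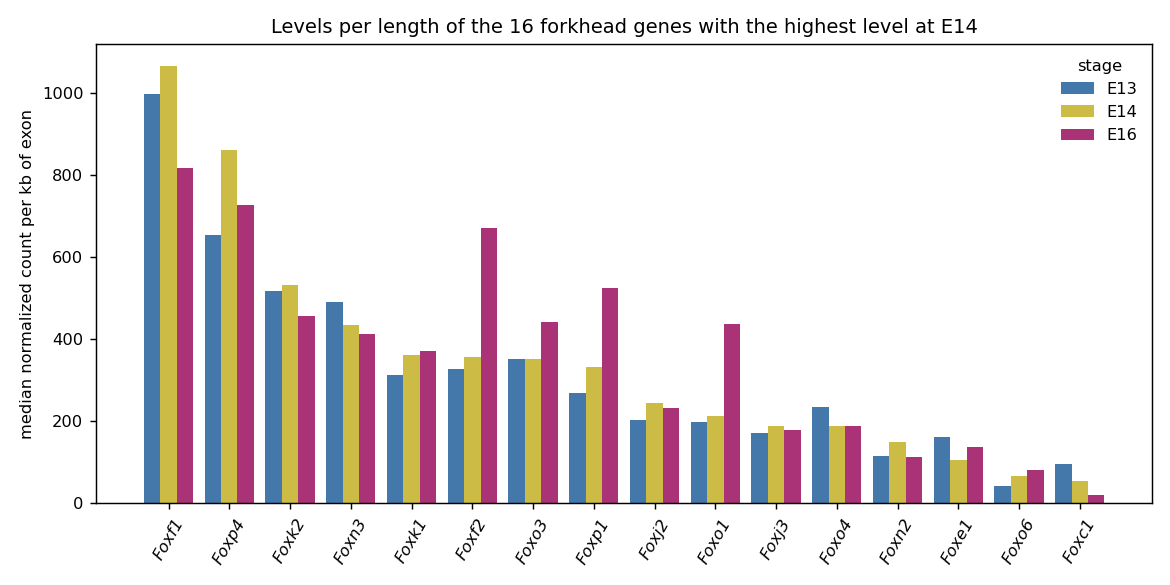
Median level over 7 teeth in normalized counts per kb of exon, for the 16 forkhead genes with the highest level at E14, with 1 bar for each stage. Foxf1 has the highest bar at each stage (997, 1065, and 816), and the E16 bars of Foxf2, Foxp1, and Foxo1 stand above their E13 and E14 bars.

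Several members resemble each other in the DNA of the winged helix, which bears on how reads are assigned to genes. Among 820 pairs of members, 53 share a run of at least 25 identical bases in their coding sequence, and 5 share at least 40. The runs are shown for Foxc1 with Foxc2 and for Foxf1 with Foxf2, jaw mesenchyme factors whose members moved differently between stages, with the bases shared by a pair in capitals and 21 bases of the coding strand on each side (GRCm38). For Foxc1 (chr13:31807625-31807719, plus strand) and Foxc2 (chr8:121117011-121117105, plus strand), 53 bases are shared.
Foxc1: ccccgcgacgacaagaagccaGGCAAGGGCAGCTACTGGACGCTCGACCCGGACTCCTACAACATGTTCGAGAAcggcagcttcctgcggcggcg
Foxc2: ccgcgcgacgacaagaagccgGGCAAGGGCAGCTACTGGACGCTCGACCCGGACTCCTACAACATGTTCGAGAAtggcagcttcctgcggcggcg
For Foxf1 (chr8:121084636-121084718, plus strand) and Foxf2 (chr13:31626473-31626555, plus strand), 41 bases are shared.
Foxf1: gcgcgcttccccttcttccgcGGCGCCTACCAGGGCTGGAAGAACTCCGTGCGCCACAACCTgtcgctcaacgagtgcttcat
Foxf2: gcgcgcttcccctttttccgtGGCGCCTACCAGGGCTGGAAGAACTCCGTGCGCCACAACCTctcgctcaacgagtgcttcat
The shared runs are a small portion of the coding sequences, which have 1659 and 1482 bases in Foxc1 and Foxc2 and 1134 and 1338 in Foxf1 and Foxf2.

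Of the 9 jaw mesenchyme and vessel wall factors, 8 were tested. From E13 to E14, 1 of them rose and 3 fell, from E14 to E16, 2 rose and 3 fell, and from E13 to E16, 3 rose and 3 fell. Of the 8 markers of dental and jaw mesenchyme, 1 rose and 2 fell from E13 to E14 (edgeR). From E14 to E16, 0 rose and 5 fell, and from E13 to E16, 0 rose and 4 fell. At the second step Prrx1, Msx1, and Prrx2 fell by 1.30, 1.14, and 1.13 on the log2 scale. Prrx2 was the marker that rose at the first step, by 1.02, and its change from E13 to E16 was -0.11 and passed no test. The sum of the 8 markers ranged from 74197 to 80104 normalized counts at E13, from 70252 to 79161 at E14, and from 25477 to 52815 at E16, and none of them was at 0. Their part in the changes of the forkhead genes was not tested.

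Foxc1, which is needed in neural crest derived mesenchyme of the skull and eye, was at 392, 556, and 813 normalized counts in the lowest, median, and highest tooth of E13, at 280, 314, and 384 at E14, and at 64.2, 126, and 205 at E16. No tooth overlapped with a tooth of the next stage. The gene fell by 0.84 (SE 0.19) from E13 to E14 and fell by 1.30 (SE 0.20) from E14 to E16 on the log2 scale (edgeR quasi-likelihood test, adjusted p = 0.00286 and 1.91e-05). Foxd1, known from the stroma of the kidney and from the maxillary mesenchyme, was at 160, 260, and 402 normalized counts at E13, at 105, 128, and 180 at E14, and at 32.6, 71.4, and 105 at E16. Each stage had a lower median than the one before, and only the ranges of E13 and E16 were apart. The log2 fold changes were -1.01 (SE 0.20) and -0.93 (SE 0.21), with an adjusted p of 0.000767 and 0.00144 (edgeR).

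Foxd2, a close relative of Foxd1 that is expressed in facial and kidney mesenchyme, had the opposite course at the second step. Its lowest, median, and highest teeth were at 10.7, 27.8, and 46.6 normalized counts at E13, at 1.02, 10.9, and 18.6 at E14, and at 75.1, 255, and 369 at E16. All 7 teeth of E16 were above every earlier tooth, and 6 of them were at 222 or more. The log2 fold change was -1.31 (SE 0.38) from E13 to E14 and 4.46 (SE 0.36) from E14 to E16 (edgeR, adjusted p = 0.0149 and 9.12e-10), a 22.0-fold rise at the second step.

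The 250 bases before the annotated starts of Foxc1, Foxd1, Foxd2, and Foxf2 are shown because these genes of 1 tissue moved in different directions (RefSeq, GRCm38.p6, printed along the strand of the gene). Of the 41 members, 26 matched a RefSeq entry. Capitals mark matches to a motif on either strand. The GC box was searched as GGGCGG. The CCAAT box was searched as its own letters. The TATA box was searched as TATAAA. The forkhead motif was searched as TGTTTAC. The Gli motif was searched as GACCACCCA. Of these, the 4 windows hold only GC and CCAAT boxes, none overlapping another.
Foxc1, chr13:31806396-31806645, plus strand: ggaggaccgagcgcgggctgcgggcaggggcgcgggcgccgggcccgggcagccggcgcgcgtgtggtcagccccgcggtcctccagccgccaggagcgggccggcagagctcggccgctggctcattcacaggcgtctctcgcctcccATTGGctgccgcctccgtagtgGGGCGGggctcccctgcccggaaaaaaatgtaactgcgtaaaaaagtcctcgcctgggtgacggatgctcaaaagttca
Foxd1, chr13:98353995-98354244, plus strand: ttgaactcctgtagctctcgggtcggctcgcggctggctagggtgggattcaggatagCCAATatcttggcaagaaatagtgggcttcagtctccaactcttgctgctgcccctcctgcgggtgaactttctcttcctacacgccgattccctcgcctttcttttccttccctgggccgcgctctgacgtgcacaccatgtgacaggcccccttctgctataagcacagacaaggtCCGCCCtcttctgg
Foxd2, chr4:114908899-114909148, minus strand: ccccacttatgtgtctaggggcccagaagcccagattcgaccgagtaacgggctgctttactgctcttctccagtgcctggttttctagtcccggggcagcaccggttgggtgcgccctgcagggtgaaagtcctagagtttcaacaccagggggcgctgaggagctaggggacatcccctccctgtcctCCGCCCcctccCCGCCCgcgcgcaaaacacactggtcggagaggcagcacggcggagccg
Foxf2, chr13:31625566-31625815, plus strand: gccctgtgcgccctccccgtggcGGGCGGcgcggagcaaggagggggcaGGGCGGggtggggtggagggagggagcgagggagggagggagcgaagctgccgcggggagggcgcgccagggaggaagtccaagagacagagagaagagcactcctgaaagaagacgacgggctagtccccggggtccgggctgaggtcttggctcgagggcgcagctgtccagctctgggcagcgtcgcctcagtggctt
Foxc1 and Foxd1 each hold 1 GC box and 1 CCAAT box, and Foxd2 and Foxf2 each hold 2 GC boxes. Over all 32851 windows of the same length, 32.7% hold a GC box and 33.8% a CCAAT box, and 12.4%, 3.17%, and 0.225% hold the other motifs in the order given above. Over the 26 members with a window, 20 hold a GC box, 14 a CCAAT box, 3 a TATA box, 1 a forkhead motif, and 0 a Gli motif. A member was counted if any of its windows held the motif, while the shares over all windows count each window, so these are unlike measures. The 4 windows have between 12 and 29 CG pairs, where the median window has 6.

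Foxf1 stayed nearly level up to E14 and was lower at E16. Its lowest, median, and highest teeth were at 2053, 2408, and 2666 normalized counts at E13, at 2107, 2572, and 2746 at E14, and at 615, 1971, and 2117 at E16. The 7 teeth of E16 overlapped slightly with those of the earlier stages from below, and the left tooth of embryo 3 was far under the other 6, which held at least 1745. At the second step its log2 fold change was -0.51 (SE 0.16, edgeR, adjusted p = 0.0210), and -0.35 without that tooth (adjusted p = 0.000399). From E13 to E16 it was -0.43 (SE 0.16, adjusted p = 0.0384), and this call was lost when any of several other teeth was left out or only these stages were fitted (adjusted p up to 0.0889).

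Foxf2, which is needed for the palate, moved the other way from its paralog Foxf1. It was at 661, 775, and 881 normalized counts at E13, at 582, 842, and 985 at E14, and at 402, 1587, and 1832 at E16. Apart from the left tooth of embryo 3, the E16 teeth were all above the earlier teeth, with at least 1384. From E14 to E16 it changed by 0.79 (SE 0.19) on the log2 scale (edgeR, adjusted p = 0.00319), and 0.97 without that tooth (adjusted p = 1.66e-08). Per kb, Foxf2 was at 328 normalized counts at E13 and 671 at E16, so its distance to Foxf1 became smaller.

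Foxs1, a gene of pericytes and of neural crest derivatives, appeared at the first step. It was at 0, 0.981, and 13.6 normalized counts at E13, with 3 teeth at 0, at 7.15, 35.2, and 48.1 at E14, and at 2.18, 21.9, and 26.2 at E16. The ranges overlapped at each step, and 6 of 7 teeth of E14 were above every tooth of E13. The log2 fold change from E13 to E14 was 2.92 (SE 0.65, edgeR), and from E14 to E16 it was -0.91 (SE 0.56, adjusted p = 0.240). With at most 11 counts in an E13 tooth, Foxs1 passed the filter on low counts through the later teeth, where it was higher. It is counted among the genes that rose from E13 to E14, and its p value for that step is not given. Of 7 markers of pericytes and smooth muscle, 4 rose and 0 fell from E13 to E14 by the same test, with Kcnj8 at 1.57 and Tagln at 1.15 on the log2 scale. The sum of the 7 markers was between 3495 and 4830 normalized counts at E13, between 5134 and 6356 at E14, and between 5393 and 8090 at E16, none of them was at 0, and their part in the change of Foxs1 was not tested.

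Foxc2, known from vessels and lymphatics, had medians of 47.1, 45.2, and 66.7 normalized counts and passed no test with all teeth. From E14 to E16 its log2 fold change was 0.57 (SE 0.31, edgeR, adjusted p = 0.173), and without the left tooth of embryo 3 it was 0.75 (adjusted p = 0.0265). Foxl1, a gene of the mesenchyme under epithelia, had medians of 30.0, 29.9, and 21.1. Foxl2, known from the ovary and eyelid, was not tested, with 38 counts over all E13 teeth, 26 over E14, and 0 over E16.

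**Figure D3:**
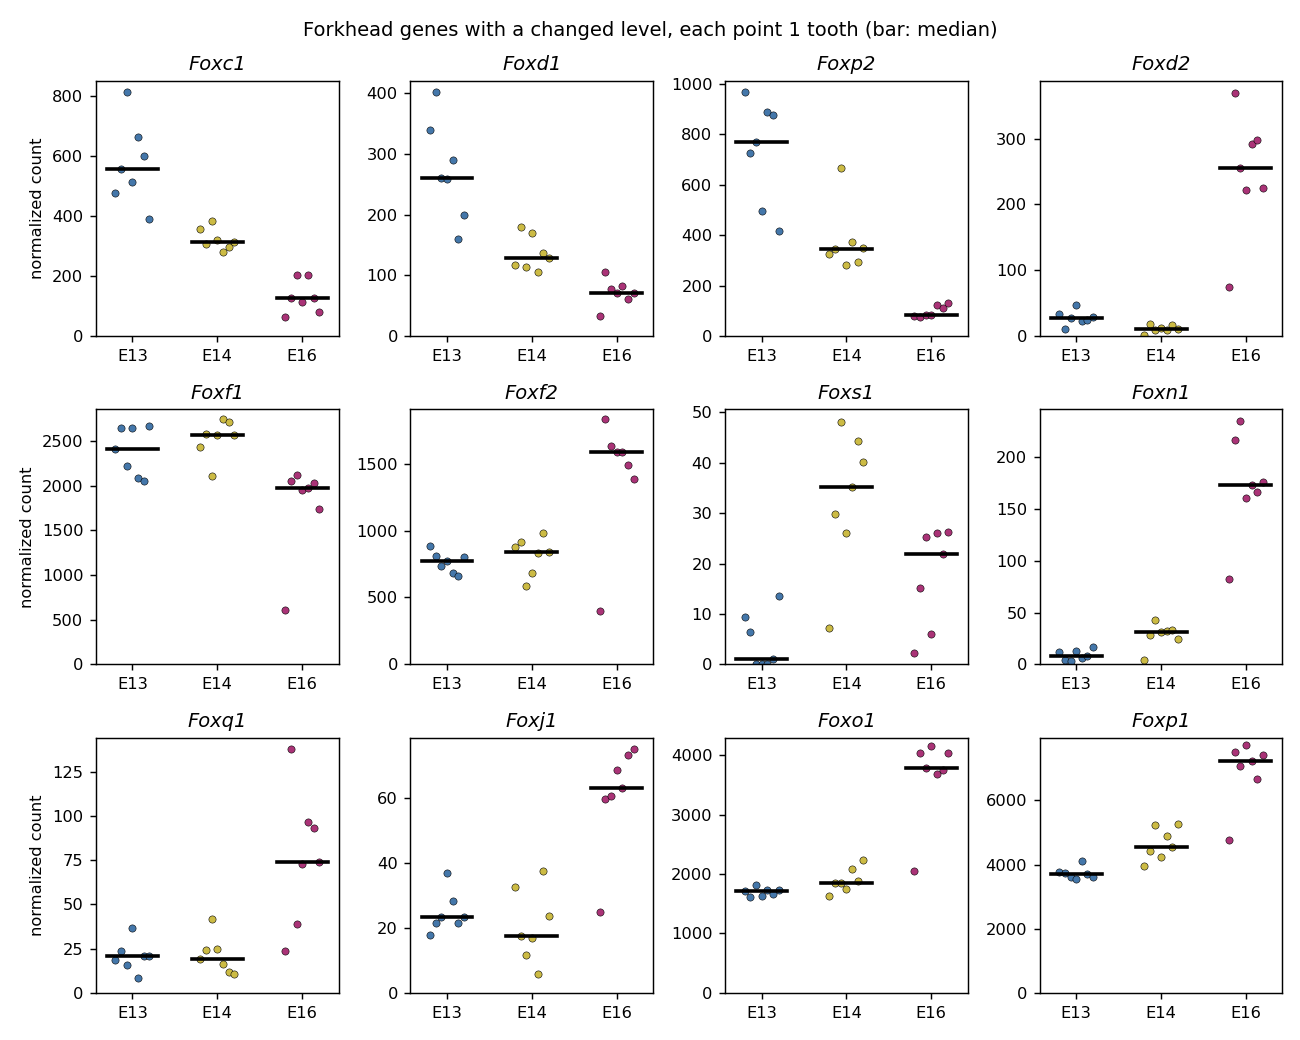
Normalized counts of 12 forkhead genes in each of the 21 teeth, with 1 panel for each gene, 1 point for each tooth, and a bar at the median of each stage. Foxc1, Foxd1, and Foxp2 step down from stage to stage, and Foxd2 and Foxn1 have medians of 255 and 173 at E16, above all teeth of the earlier stages.

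Of the 10 epithelial and endodermal factors, 4 were tested. From E13 to E14, 1 of these rose and 0 fell, and from E14 to E16 and from E13 to E16, 3 rose and 0 fell (edgeR). Markers of epithelium moved upward as well. Of 8 markers of dental and oral epithelium, 7 rose and 0 fell in each of the 3 comparisons by the same test, and their sum was between 15053 and 22932 normalized counts at E13, between 25386 and 34574 at E14, and between 40753 and 69431 at E16. Of 7 markers of cornified oral epithelium, 4, 6, and 7 rose in the comparisons of E13 with E14, E14 with E16, and E13 with E16, and their sum was at most 556 before E16 and at least 12309 at E16. Among these 15 markers, only Cnfn was at 0 in all teeth of a stage, at E13 and at E14. Their part in the changes of the forkhead genes was not tested.

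Foxn1, which is required for thymic epithelium and for hair and whose loss gives the nude mouse, had the largest rise of the family from E13 to E16. It was at 3.34, 7.85, and 17.2 normalized counts at E13, at 4.09, 31.1, and 42.7 at E14, and at 82.7, 173, and 234 at E16. Every tooth of E16 was above every earlier tooth, and at E14 only the right tooth of embryo 1 was within the range of E13. The log2 fold change was 1.60 (SE 0.37) from E13 to E14 and 2.61 (SE 0.31) from E14 to E16 (edgeR, adjusted p = 0.00305 and 5.77e-07). With a median of 53.7 normalized counts per kb at E16, Foxn1 remained far below Foxf1.

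Foxq1, a gene of the hair shaft, was at 8.52, 20.6, and 36.8 normalized counts at E13, at 10.9, 19.4, and 41.8 at E14, and at 23.9, 74.3, and 138 at E16. The E13 and E14 teeth covered about the same range, and 5 of the 7 teeth of E16 were above both. Its log2 fold change from E14 to E16 was 1.84 (SE 0.35, edgeR, adjusted p = 0.000303). An exon of the gene A530084C06Rik overlaps an exon of Foxq1, so that without the strand their reads cannot be told apart, and it also rose, by 1.59 (SE 0.26, edgeR, adjusted p = 5.45e-05).

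Foxj1, the regulator of motile cilia, was at 17.9, 23.4, and 36.8 normalized counts at E13, at 5.71, 17.7, and 37.6 at E14, and at 25.03, 63.3, and 75.1 at E16. Apart from the left tooth of embryo 3, the E16 teeth were above all earlier teeth. At the second step Foxj1 rose by 1.54 on the log2 scale (SE 0.31, edgeR, adjusted p = 0.000477). Of 10 genes of motile cilia that Foxj1 is known to regulate, 9 were tested. The dynein gene Dnah9 fell by 0.60 from E13 to E14 and the dynein gene Dnah11 rose by 1.13 from E14 to E16 on the log2 scale (edgeR, adjusted p = 0.0465 and 0.00194). At these steps the other 8 genes passed no test. Between E13 and E16 the adjusted p of the 9 genes was 0.0690 or more. The summed level of all 10 listed genes at E16 was highest in the left tooth of embryo 3, the tooth with the least Foxj1.

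Foxe1, a thyroid and palate factor, had medians of 450, 299, and 382 normalized counts and passed no test (adjusted p between 0.245 and 0.815 in edgeR). The endodermal factors Foxa1, Foxa2, and Foxa3 were not tested. Foxa1 had 116 counts over the E13 teeth, 46 of them in the left tooth of embryo 7, 36 over the E14 teeth, and 9 over the E16 teeth, Foxa2 had 14, 16, and 45, and Foxa3 had 1, 39, and 26. No read was counted on Foxi1, a factor of the inner ear and kidney, in any of the 21 libraries, and 1 read was counted on Foxi2.

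All 4 FoxO genes were tested. From E13 to E16 Foxo1 and Foxo6 rose and Foxo4 fell. Foxo1, the FoxO factor best known from vessels and metabolism, was at 1620, 1718, and 1822 normalized counts at E13, at 1638, 1848, and 2242 at E14, and at 2058, 3781, and 4164 at E16. The bud and cap stages overlapped broadly, and 6 of 7 bell stage teeth were at 3678 or more, above every earlier tooth. Foxo1 rose by 0.93 at the second step on the log2 scale (SE 0.11, edgeR, adjusted p = 3.19e-07).

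Foxo3, which is the FoxO gene with the highest level per kb, was at 2460, 2660, and 3077 normalized counts at E13, at 2305, 2661, and 2807 at E14, and at 1765, 3349, and 3897 at E16. The left tooth of embryo 3 was below all earlier teeth, while the E16 median was above them. The log2 fold change from E14 to E16 was 0.32 (SE 0.11, edgeR, adjusted p = 0.0356). From E13 to E16 it was 0.26 (adjusted p = 0.0733), and 0.38 without that tooth (adjusted p = 2.54e-05).

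Foxo6, a FoxO gene with high levels in the brain, was at 82.9, 112, and 211 normalized counts at E13, at 105, 175, and 181 at E14, and at 116, 214, and 273 at E16. The stages overlapped throughout. Over the whole time the log2 fold change was 0.75 (SE 0.20, edgeR, adjusted p = 0.00399), and neither single step passed the threshold. Foxo4, which lies on the X chromosome, had medians of 816, 659, and 655 normalized counts, with a log2 fold change of -0.37 (SE 0.13) from E13 to E14 (edgeR, adjusted p = 0.0432).

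The genes that act on the FoxO proteins moved in both directions. Of 14 genes from the insulin receptor to the Akt and Sgk kinases, 2 rose and 4 fell from E13 to E14, 4 rose and 1 fell from E14 to E16, and 3 rose and 3 fell from E13 to E16. From E13 to E14 the changes past the threshold with the largest size were those of Sgk1 (-1.01), Pik3r1 (-0.33), Pik3cb (0.33), and Irs1 (-0.26). From E14 to E16 they included those of Sgk1 (0.68), Sgk3 (0.66), and Pik3cb (0.38), and from E13 to E16 those of Sgk3 (0.89), Pik3cb (0.71), and Irs1 (-0.45), all on the log2 scale. The median log2 fold change of the 14 genes was 0.01, -0.03, and -0.03, beside -0.01, 0.00, and -0.01 over all genes tested. Of 12 known FoxO targets, 2 rose and 0 fell, 3 rose and 1 fell, and 5 rose and 2 fell in the same order of comparisons, with medians of 0.14, 0.09, and 0.22. Bcl6, a repressor, rose at both steps (0.63 and 0.83), Trib1, a pseudokinase, rose at the first (0.87), and Txnip, an inhibitor of thioredoxin and of glucose uptake, rose at the second (0.98). The pluripotency factor Klf4 fell by 0.68 and the stress gene Sesn1 rose by 0.27 at the second step. Over the whole time the largest changes of the targets were those of Bcl6 (1.46), Txnip (1.13), Trib1 (0.70), and the growth arrest gene Gadd45a (0.62).

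Of the 4 FoxP genes, 3 were tested, and Foxp1 and Foxp2 moved in opposite directions at both steps. Foxp1, a repressor with roles in heart, lung, and lymphocytes, was at 3553, 3698, and 4120 normalized counts at E13, at 3944, 4559, and 5272 at E14, and at 4753, 7217, and 7738 at E16. The E13 and E16 teeth did not overlap, and even the left tooth of embryo 3 was above all E13 teeth. The log2 fold changes were 0.32 (SE 0.09) and 0.57 (SE 0.09), with an adjusted p of 0.0126 and 2.48e-05 (edgeR). Gm20696, a gene whose exons overlap those of Foxp1, rose by 0.72 (SE 0.14) at the second step (edgeR, adjusted p = 0.000250).

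Foxp2, the relative of Foxp1 known from the speech circuits and the lung, was at 418, 769, and 966 normalized counts at E13, at 283, 345, and 665 at E14, and at 74.2, 84.1, and 129 at E16. The E16 teeth were all far below the others, and of the E14 teeth only the right tooth of embryo 3 was within the range of E13. The log2 fold changes were -0.97 (SE 0.19) and -1.94 (SE 0.21), with an adjusted p of 0.000754 and 9.15e-08 (edgeR). In the table of estimated counts the change of Foxp2 from E13 to E16 was smaller, -1.06 beside -2.91 here, and the E16 teeth there ranged from 399 to 909 and overlapped those of E15. Foxp4 was at 2942, 3213, and 3982 normalized counts at E13, at 3627, 4237, and 4629 at E14, and at 1762, 3579, and 4304 at E16, with overlap at each step. Its log2 fold change from E13 to E14 was 0.33 (SE 0.13, edgeR, adjusted p = 0.0633), and the adjusted p was 0.00126 without the left tooth of embryo 3 at E16, which has no part in that comparison other than in the shared estimate of the spread. Foxp3, the factor of regulatory T cells, was not tested, with 83 counts over the 21 libraries, and its exons overlap those of Ccdc22, Flicr, Gm36995, and Ppp1r3f.

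Of the 7 genes of the FoxK, FoxJ2, FoxJ3, and FoxN group, 6 were tested and 0 rose from E13 to E16, while Foxk2 and Foxn3 fell (edgeR). Foxn3, a checkpoint repressor, was at 5326, 5629, and 5827 normalized counts at E13, at 4848, 4998, and 5723 at E14, and at 2986, 4750, and 4907 at E16. The E16 teeth were all below the E13 teeth, with a log2 fold change of -0.31 (SE 0.08, edgeR, adjusted p = 0.00394). Foxk2, which represses genes of fasting and recruits the deubiquitinase Bap1, was at 2549, 2713, and 2869 normalized counts at E13, at 2449, 2796, and 3011 at E14, and at 1263, 2403, and 2580 at E16. The E16 teeth lay low with some overlap, and the log2 fold change from E14 to E16 was -0.32 (SE 0.10, edgeR, adjusted p = 0.0206). Foxk1, its paralog, was at 2261, 2362, and 2829, at 2471, 2744, and 3184, and at 1060, 2814, and 2891 normalized counts, and passed no test with all teeth (adjusted p between 0.344 and 0.941).

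The remaining genes of this group moved little. Foxn2, a relative of Foxn3, had medians of 841, 1103, and 829 normalized counts, and its E14 teeth were all above its E13 teeth. It rose by 0.38 (SE 0.10) and then fell by 0.35 (SE 0.10) on the log2 scale (edgeR, adjusted p = 0.00998 and 0.0122). Foxj2, best known from male germ cells, had medians of 1091, 1300, and 1236, and Foxj3, an activator in muscle, 1891, 2078, and 1961, with log2 fold changes of Foxj3 between -0.13 and 0.11. Foxn4, a factor of the retina, had 15 counts over the 21 libraries and was not tested.

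Of 11 genes whose proteins are known to work with FoxP or FoxK factors, 1 rose and 0 fell from E13 to E14, 0 rose and 5 fell from E14 to E16, and 0 rose and 4 fell from E13 to E16 (edgeR). The corepressor gene Ctbp2 rose by 0.22 at the first step and fell by 0.35 at the second. With Ctbp2, the largest changes at the second step were those of Asxl1 (-0.36), Mta1 (-0.36), and Bap1 (-0.35). From E13 to E16, Bap1 (-0.50), Asxl1 (-0.40), and the histone deacetylase genes Hdac2 (-0.32) and Hdac1 (-0.25) were lower. The medians of the list were 0.03, -0.30, and -0.20 beside -0.01, 0.00, and -0.01 over all genes tested.

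The Hedgehog pathway acts upstream of Foxf1 and Foxf2 in several organs, and of its 12 genes, 5 rose and 1 fell from E13 to E14, 4 rose and 3 fell from E14 to E16, and 5 rose and 4 fell from E13 to E16. From E13 to E14 the ligand gene Shh rose by 3.75, and the feedback targets Hhip and Ptch1 rose by 0.86 and 0.59 on the log2 scale, while the coreceptor gene Gas1 fell by 0.64. From E14 to E16, Shh rose by 1.46, Hhip by 1.35, and Ptch1 by 0.96. Over both steps these genes rose by 5.20 (Shh), 2.21 (Hhip), and 1.55 (Ptch1). The coreceptors Boc, Cdon, and Gas1 were lower at E16 than at E14. Beside the rise of Shh and its feedback targets from E13 to E14, the log2 fold changes of Foxf1 and Foxf2 were 0.08 (SE 0.16) and 0.09 (SE 0.20), with 95% intervals from -0.24 to 0.40 and from -0.29 to 0.48. The medians of the 12 genes were 0.13, -0.12, and -0.01, near the values over all genes tested of -0.01, 0.00, and -0.01.

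The remaining 7 genes, Foxb1, Foxb2, Foxd4, Foxe3, Foxh1, Foxr1, and Foxr2, are known from the brain, lens, early embryo, or germ line, and were not tested. Each had between 2 and 23 counts over the 21 libraries, and the highest count in a tooth was 9, for Foxh1, a partner of Smad proteins.

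Several members are neighbours on a chromosome. Foxq1, Foxf2, and Foxc1 lie on the same strand of chromosome 13, with gaps of 64840 and 175230 base pairs. From E14 to E16, Foxq1 rose 3.58-fold and Foxf2 1.73-fold, while Foxc1 fell by 1.30 on the log2 scale. On chromosome 8, Foxf1, Foxc2, and Foxl1 follow each other with gaps of 28027 and 9045 base pairs, and of these only Foxf1 passed the threshold. On chromosome 4, Foxd2 lies 16274 base pairs from Foxe3, which had 3 counts in all.

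Some members have a second gene at or near their start. Of 39 genes that overlap a member or start within 5 kb of its start, 21 were tested, and 9 of these passed the threshold in at least 1 comparison, beside 50.7% of all genes tested. Among the 14 that are noncoding, 5 did so (Foxd2os, 1700018A04Rik, Gm20705, Gm22328, and Gm38034) and 9 did not (Fendrr, Flicr, Gm12446, Gm20682, Gm26826, Gm36995, Gm47132, Gm47138, and Gm47139). Gm20705 and Gm22328 lie within Foxp1, Gm38034 within Foxo1, and Gm20682, Gm47132, Gm47138, and Gm47139 within Foxn3. Gm26826, Gm36995, and Gm12446 share exon bases with Foxj2, Foxp3, and Foxe1 on the opposite strand, and their reads cannot be told apart without the strand. Flicr shares exon bases with Foxp3 on the same strand, so the strand would not separate their reads there.

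Foxd2os starts 384 base pairs from Foxd2, and the pair moved apart at the first step. Foxd2os was at 12.3, 22.6, and 34.7 normalized counts in the lowest, median, and highest tooth of E13, at 27.2, 39.1, and 46.3 at E14, and at 187, 196, and 256 at E16. It rose by 0.74 (SE 0.19) from E13 to E14, where Foxd2 fell by 1.31, and both rose at the second step, Foxd2os by 2.55 (SE 0.18, edgeR, adjusted p = 0.00777 and 7.53e-11 for its steps). In the left tooth of embryo 3 at E16, Foxd2 was the lowest of its stage with 75.1 normalized counts and Foxd2os the highest with 256.

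1700018A04Rik starts 24 base pairs from Foxf2. It had 102, 157, and 196 normalized counts at E13, 141, 178, and 269 at E14, and 437, 572, and 638 at E16, with every E16 tooth above all earlier ones. It rose by 1.55 (SE 0.14) from E14 to E16 (edgeR, adjusted p = 5.41e-09), beside 0.79 (SE 0.19) for Foxf2. In the left tooth of embryo 3 at E16 it was at 589 normalized counts and Foxf2 at 402.

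Fendrr, a long noncoding RNA gene that starts 1276 base pairs from Foxf1, had 1987, 2321, and 2632 normalized counts at E13, 1667, 2205, and 2572 at E14, and 1918, 1975, and 2333 at E16. Its stages overlapped and its log2 fold changes were -0.09, -0.11, and -0.20 from E13 to E14, E14 to E16, and E13 to E16 (edgeR, adjusted p = 0.481, 0.347, and 0.0543). In the left tooth of embryo 3 at E16 it was at 1954, within the range of its stage, where Foxf1 was at 615.

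**Figure D4:**
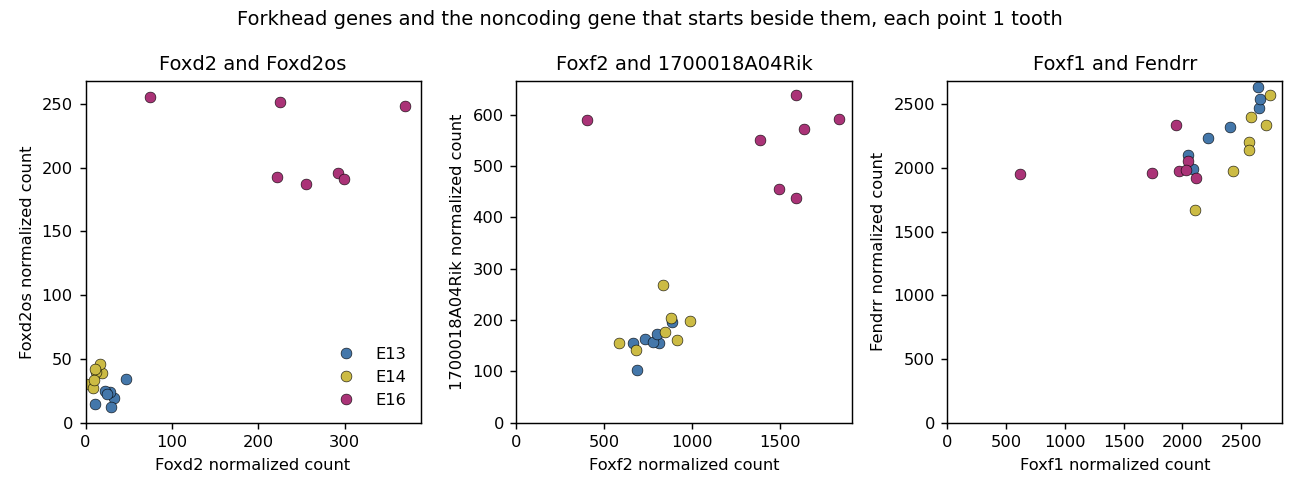
Normalized counts of 3 forkhead genes (horizontal axis) and of the noncoding gene that starts beside each (vertical axis), with 1 point for each of the 21 teeth, colored by stage. The E16 point to the left of the others is the left tooth of embryo 3, at 75.1, 402, and 615 for Foxd2, Foxf2, and Foxf1, while its noncoding genes are at 256, 589, and 1954.

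The second table holds estimated counts for 25 of the 41 genes, and it adds the E15 teeth. Foxf2, Foxj1, and Foxq1 are not listed in it. Of 24 genes tested in it, 5 rose and 5 fell from E13 to E15, where 26.8% of all genes passed (18.3% upward, 8.49% downward). From E15 to E16, 3 rose and 1 fell (6.33% of all genes, 3.64% upward and 2.69% downward). Without the left tooth of embryo 3 at E16, 5 rose at that step and 10.3% of all genes passed. From E13 to E16, 6 rose and 7 fell (36.4%, 21.7% upward and 14.7% downward). From E15 to E16, Foxd2, Foxn1, and Foxo1 rose and Foxc1 fell, and without the left tooth of embryo 8 at E15 no fall passed the threshold. From E13 to E15, Foxd2, Foxn1, Foxo1, Foxp1, and Foxs1 rose and Foxc1, Foxd1, Foxe1, Foxf1, and Foxp2 fell.

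**Figure D5:**
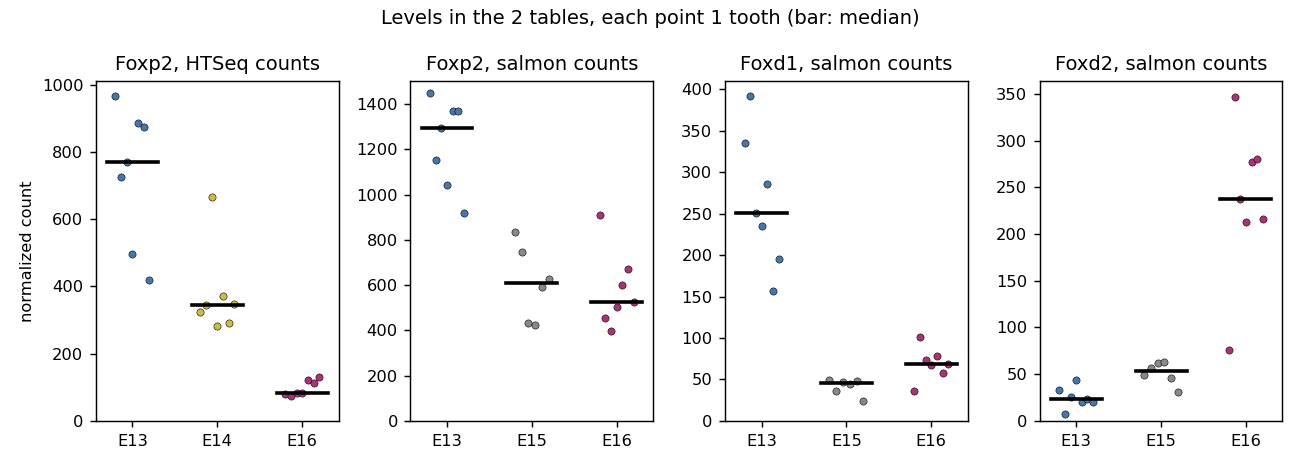
Normalized counts of Foxp2 in both tables and of Foxd1 and Foxd2 in the table of estimated counts, with 1 point for each tooth and a bar at the median of each stage. The median of Foxp2 at E16 is 84.1 in the table of HTSeq counts and 524 in the table of estimated counts, and Foxd1 has its lowest median, 45.7, at E15.

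Foxd2 was at 7.41, 23.5, and 44.2 normalized estimated counts at E13, at 30.9, 53.2, and 62.6 at E15, and at 75.4, 238, and 347 at E16. All E16 teeth were above the E15 teeth, and the log2 fold changes were 1.08 (SE 0.32) from E13 to E15 and 2.17 (SE 0.31) from E15 to E16 (edgeR, adjusted p = 0.0134 and 6.46e-05). Foxn1 was at 2.12, 6.57, and 17.0 at E13, at 22.2, 54.3, and 79.8 at E15, and at 77.8, 155, and 206 at E16. Its E15 teeth were all above its E13 teeth, and the log2 fold changes were 2.76 (SE 0.36) and 1.51 (SE 0.31, edgeR, adjusted p = 2.96e-06 and 0.00279).

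Foxd1 was not ordered by stage. It was at 157, 251, and 392 normalized estimated counts at E13, at 24.2, 45.7, and 49.3 at E15, and at 35.8, 68.6, and 101 at E16. The E15 teeth were all below the E13 teeth, with a log2 fold change of -2.62 (SE 0.24, edgeR, adjusted p = 1.94e-08), and overlapped with those of E16 (0.71, SE 0.24, adjusted p = 0.0833). Foxf1 and Foxe1 also fell from E13 to E15, by 0.60 (SE 0.18) and 0.69 (SE 0.17) on the log2 scale (edgeR, adjusted p = 0.0139 and 0.00287), and Foxp1 and Foxo1 rose by 0.74 and 0.58 (adjusted p = 8.90e-07 and 0.000258). Stage and preparation of the E15 teeth, which have sample descriptions of their own, cannot be told apart.

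Most members had nearly the same counts in both tables, and Foxp2, Foxl1, Foxp3, and Foxr1 did not. Over the 7 teeth of E13, 5020 HTSeq counts and 8380 estimated counts were assigned to Foxp2, a ratio of 1.67, and over the 7 teeth of E16 there were 716 and 4170, a ratio of 5.82. The fall from E13 to E16 was -2.91 on the log2 scale in the HTSeq counts and -1.06 (SE 0.17, edgeR, adjusted p = 3.38e-05) in the estimated counts, the same direction with a smaller size. Foxl1 had ratios of 3.22 at E13 and 3.11 at E16. Foxp3 had 9 HTSeq and 30 estimated counts at E13 and 27 and 33 at E16, and Foxr1 had 0 and 68 at E13 and 6 and 44 at E16. For Foxf1 the ratios were 0.973 and 0.982, for Foxc1 0.977 and 0.987, and for Foxd2 0.909 and 0.967. Foxa1 failed the filter on low counts in the HTSeq counts and passed it in the estimated counts, with 116 and 107 counts over the E13 teeth. Of the 107, 44 were in the left tooth of embryo 7, the tooth with the muscle genes. Its median was 13.1 at E13, 3.47 at E15, and 0 at E16, with at most 3 counts in an E16 tooth. It is among the 7 genes counted as lower at E16 than E13 there. Because it passed the filter only through the earlier teeth, where it was higher, its p value is not given.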

How the data were processed

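RNA of single first molar tooth germs was sequenced in 21 teeth of E13, E14, and E16 and in the E15 teeth, and samples were grouped by the stage in the sample labels. The authors used FastQC (0.11.8) and Trimmomatic (0.39) on the reads, STAR with GRCm38 for alignment, and HTSeq for the deposited table of raw counts per gene. They also deposited a table of estimated counts from Salmon for 14185 genes at E13, E15, and E16, which was rounded to whole numbers here. The strand setting of the counting and the reason why the second table lists fewer genes are not given in the sources used here. One of the 7 E15 samples, the right tooth of embryo 5, was not analysed here. One E13 column is written with an X for the embryo number and was read as embryo 10.

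Genes were tested with edgeR (4.0.16) in R (4.3.3), using its filter on low counts, TMM scaling, a quasi-likelihood fit with stage as the factor over all 21 libraries, and Benjamini-Hochberg adjustment over all 19101 genes tested (13447 in the second table), with an adjusted p below 0.05 as the threshold. The biological coefficient of variation was 21.2%. All p values are two-sided. Levels are counts divided by DESeq2 (1.42.0) size factors, and per kb of exon by the GENCODE annotation of GRCm38. The files give no cell numbers, and the total counts of 17814073 to 27115729 per library set the precision of low genes. The test was tried on simulated data. Values per tooth are given for genes past the threshold with an absolute log2 fold change of at least 0.5, for the 5 highest genes per kb at any stage, and for others as ranges or medians. The tooth values of Foxn2 and some other genes outside this rule were chosen after they were seen. For the lists of pathway genes, the 4 largest changes past the threshold in a comparison are named, and further ones were chosen after their values were seen. Some items are not reported here. The members and lists were chosen with earlier results of these data known. Alternatives were other scalings, filters, DESeq2, only the stages compared, side of the jaw, the embryo number as a block, summed teeth of one embryo, and each tooth left out.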

Additional observations from a re-analysis of the deposited data

Results flagged for a closer look

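For each of the 25 tested forkhead genes at each stage, the highest and lowest tooth were compared with the other 6 by the gap to the nearest tooth over the whole range, at Dixon's 95% critical value. Of 75 such groups, 16 held a tooth past it, where chance alone gives about 1 in 20. In 12 of the 16 this was the left tooth of embryo 3 at E16, the library with the fewest counts, which was the lowest each time. It held 615 normalized counts of Foxf1, 402 of Foxf2, 25.03 of Foxj1, 527 of Foxj2, 1060 of Foxk1, 1263 of Foxk2, 2986 of Foxn3, 2058 of Foxo1, 1765 of Foxo3, 316 of Foxo4, 116 of Foxo6, and 4753 of Foxp1. The other 4 were single high or low teeth at the earlier stages. At E13, 1 tooth was high in Foxk1 with 2829 normalized counts and 1 was high in Foxp1 with 4120. At E14, 1 tooth was low in Foxo6 with 105, and the right tooth of embryo 3 was high in Foxp2 with 665.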

How the results depend on the processing

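Fold changes were followed for 18 genes, those past the threshold by at least 0.5 on the log2 scale or among the 5 highest per kb. Among them, none that passed the threshold in either run turned its direction. In the alternatives other than leaving out 1 tooth, 428 of their fold changes kept their side of the threshold, 16 lost it, and 2 gained it. Changes short of the threshold could turn. Without the left tooth of embryo 3 at E16, the change from E14 to E16 went from -0.10 to 0.04 for Foxj2 and from -0.08 to 0.05 for Foxo4. Fitting only the stages compared gave 7 genes higher at E14 than E13 in place of 4, while the share of all genes went from 11.3% to 17.3%, and leaving out the E13 tooth with the muscle genes together with the odd E16 tooth, an alternative chosen after seeing the data, gave 8 (16.2% of all genes). With the embryo number as a replicate block, 2 genes were higher and 3 lower at E14 than E13, and over all genes 5.72% were higher and 3.06% lower in place of 11.3% and 8.47%. Foxd2, Foxn1, Foxo4, and Foxp1 then had an adjusted p of 0.0690, 0.050007, 0.172, and 0.193 (edgeR). The block also ended the calls of Foxj1, Foxk2, and Foxs1 from E13 to E16 and of Foxo3 from E14 to E16 (adjusted p = 0.0948, 0.0682, 0.123, and 0.115). The embryos of different stages are different animals that share only a number, and the 15 pairs of teeth with the same number correlated between -0.0900 and 0.199 in their deviations from the stage means. Leaving out each tooth in turn gave 4 to 8 genes higher and 4 to 7 lower at E14 than E13, 7 to 10 and 5 to 7 at E16 than E14, and 9 to 12 and 5 to 8 at E16 than E13. The shares of all genes higher moved too, from 9.43% to 16.7%, 14.3% to 18.5%, and 20.4% to 25.5%, and those lower from 6.51% to 13.8%, 10.6% to 15.8%, and 16.6% to 23.1%. In the table of estimated counts it gave 5 to 7 higher and 5 to 7 lower at E15 than E13, 3 to 5 and 0 to 2 at E16 than E15, and 5 to 8 and 5 to 8 at E16 than E13, with 15.7% to 22.1%, 2.93% to 6.00%, and 20.04% to 24.0% of all genes higher and 6.69% to 12.9%, 2.07% to 4.30%, and 12.8% to 18.4% lower. These counts take in every forkhead gene that passed the filter on low counts in a fit, also genes not tested with all teeth. The 8 genes higher at E14 and the 5 higher at E16 than E15 were those without the left tooth of embryo 3 at E16. The cause of these differences was not tested. Calls near the threshold (Foxf1, Foxk2, and Foxo3 at E16) were lost most often. Depth limits the 16 genes that were not tested.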
